A study of Mus musculus with 8 samples.

Results

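The 9 complement genes C1qa, C1qb, C1qc, C4b, Serping1, C3, Cfb, Cfp and C3ar1 were examined in brown adipose tissue (BAT) of lean and obese mice. They were chosen by name, as components, regulators and a receptor of the complement system, with earlier results of these data known. They are 9 of the 31053 genes in the count table. BAT was collected at 8 weeks of age from 4 wild-type (WT) C57BL6/J mice and from 4 db/db mice, labelled with the same strain, and was profiled by bulk RNA-seq. Per the study's methods, the db/db mice, which carry the Lepr db mutation (B6.BKS(D)-Leprdb/J), came from Jackson, all mice were male, and tissue was taken after fasting. The supplier of the WT mice is given as Charles River in one place and as Jackson in another, and was not settled here. The Lepr row holds 0 counts in all 8 libraries and checks no label.

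Complement is a cascade of plasma proteins that marks particles for removal by phagocytes. In the classical pathway the C1q complex, built from the chains of C1qa, C1qb and C1qc, recognises its target and activates the proteases C1r and C1s, which cleave C4 and C2. The alternative pathway amplifies through factor B (Cfb) and factor D (Cfd, or adipsin, an abundant product of adipocytes) and is stabilised by properdin (Cfp). Both converge on C3, whose fragment C3a is sensed by the receptor C3ar1, while Serping1 encodes the C1 inhibitor. Most circulating complement is made by the liver, and C1q is a known product of tissue macrophages.

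The 3 C1q genes lie side by side on the minus strand of chromosome 4 within 18675 bases, with no other annotated gene between them (C1qb at 136880129 to 136886187, C1qc at 136889804 to 136893065 and C1qa at 136895917 to 136898803, mm10). C4b (34728380 to 34743882) and Cfb (34856374 to 34862518) share a stretch of 134139 bases on chromosome 17, and C3 lies farther along that chromosome (57203970 to 57228136). Cfp is on chromosome X (20925454 to 20931555), Serping1 on chromosome 2 (84765387 to 84775444) and C3ar1 on chromosome 6 (122847138 to 122856161). All 9 genes are annotated as protein-coding on the minus strand. Exons of Cfb overlap those of Gm20547 on the same strand, and C4b has a near-identical copy, C4a, which was not analysed here, so the counts of Cfb and C4b are uncertain in that respect.

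RefSeq promoter windows (GRCm38.p6, 250 bases before to 50 bases after the start of the gene) were found for 5 of the 9 genes. Those of C1qb and C1qc are shown because these neighbouring genes moved together, that of Cfp because it is the alternative pathway gene with a window, and that of C3 because it moved the other way. Capitals mark the letters GAGGAA on either strand, the core recognised by the macrophage factor PU.1.
C1qb, chr4:136886151-136886450, minus strand: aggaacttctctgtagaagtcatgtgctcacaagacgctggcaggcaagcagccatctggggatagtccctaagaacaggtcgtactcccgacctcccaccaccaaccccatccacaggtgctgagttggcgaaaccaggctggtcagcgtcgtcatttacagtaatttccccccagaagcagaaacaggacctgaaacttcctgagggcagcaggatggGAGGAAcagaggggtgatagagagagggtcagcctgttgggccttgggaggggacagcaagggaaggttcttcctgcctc
C1qc, chr4:136892865-136893164, minus strand: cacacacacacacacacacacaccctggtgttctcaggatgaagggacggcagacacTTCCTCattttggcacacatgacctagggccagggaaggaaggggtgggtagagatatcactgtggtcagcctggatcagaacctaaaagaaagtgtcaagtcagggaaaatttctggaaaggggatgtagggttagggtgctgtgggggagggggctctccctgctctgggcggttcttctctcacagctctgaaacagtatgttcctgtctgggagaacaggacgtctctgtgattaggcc
Cfp, chrX:20931506-20931805, minus strand: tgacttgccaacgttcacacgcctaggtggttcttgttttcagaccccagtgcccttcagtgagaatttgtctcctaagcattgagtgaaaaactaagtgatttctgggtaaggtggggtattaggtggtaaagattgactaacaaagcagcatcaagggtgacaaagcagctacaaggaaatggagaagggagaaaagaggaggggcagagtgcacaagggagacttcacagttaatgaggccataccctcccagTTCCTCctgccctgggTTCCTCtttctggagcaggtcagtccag
C3, chr17:57228087-57228386, minus strand: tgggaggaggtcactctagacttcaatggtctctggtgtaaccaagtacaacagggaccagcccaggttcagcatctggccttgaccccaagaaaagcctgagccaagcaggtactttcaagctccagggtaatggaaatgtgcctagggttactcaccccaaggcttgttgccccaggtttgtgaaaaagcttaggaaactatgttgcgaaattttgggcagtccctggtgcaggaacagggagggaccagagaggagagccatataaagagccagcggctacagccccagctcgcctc
The core was read once in C1qb (first base at -30 from the start), once in C1qc (-193) and at 2 places in Cfp (7 and 23 bases into the transcript), and not in C3 or C3ar1. Of all 32851 windows of this length, 28.3% hold it. The letters GAAANNGAA of an interferon-response element, TTCNNNGAA of a STAT site, TTGNNCAA of a C/EBP site and GGGANTTTC of an NF-kB site, searched on both strands, were in none of the 5 windows, and in 8.56%, 8.30%, 6.40% and 1.11% of all windows. No overlap between motifs occurred in these 5 windows. These matches describe letters and not bound sites.

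Libraries held 2374079 to 2615009 counts (WT) and 2382722 to 3240074 counts (db/db), so a level of 3 counts corresponds to between 0.902 and 1.33 CPM (counts scaled to a common library size, with the TMM factor of each library). The labels name stromal vascular fraction as the cell type and BAT as the tissue, yet the adipocyte genes Ucp1 (WT 2248 ± 387 CPM, db/db 1429 ± 457 CPM) and Adipoq (1534 ± 240 and 1909 ± 185 CPM) were abundant, as in whole tissue (SD, n = 4 each). Skeletal muscle markers were higher in db/db, with 10 of 10 called and a summed level of 403 to 1397 CPM in WT and 1996 to 9856 CPM in db/db, highest in db/db replicate 1. Lymphocyte counts were also unequal, with 7 T and B cell markers summing to 0 to 16 counts in WT and 2 to 47 in db/db, highest in WT replicate 2 and db/db replicate 1. The part of either in the results below was not tested beyond the fits named beside them.

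All 9 genes passed the filter on low counts. Cfb, Cfp and C3ar1 did so through db/db, as not every WT library reached its level. With edgeR at an adjusted p under 0.05, 7 of the 9 were higher in db/db (C1qa, C1qb, C1qc, Serping1, Cfb, Cfp and C3ar1), 1 was lower (C3) and 1 was not called (C4b). Of the 6 genes at the filter level in every WT library, 4 were higher. Across all 9264 genes tested, 27.7% were called, 15.8% as higher and 11.9% as lower in db/db. The median log2 fold change (db/db over WT) was 1.94 for the 9 genes and 0.01 for all genes tested. For 8 of the 9 the CPM ranges of the genotypes did not overlap, against 28.1% of all genes. The 9 genes and the lists used below were chosen with earlier results of these data known, so these contrasts are a description. In bulk tissue, fewer cells of a type and less RNA per cell cannot be told apart, and more cells and more RNA per cell cannot either.

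**Figure D1:**
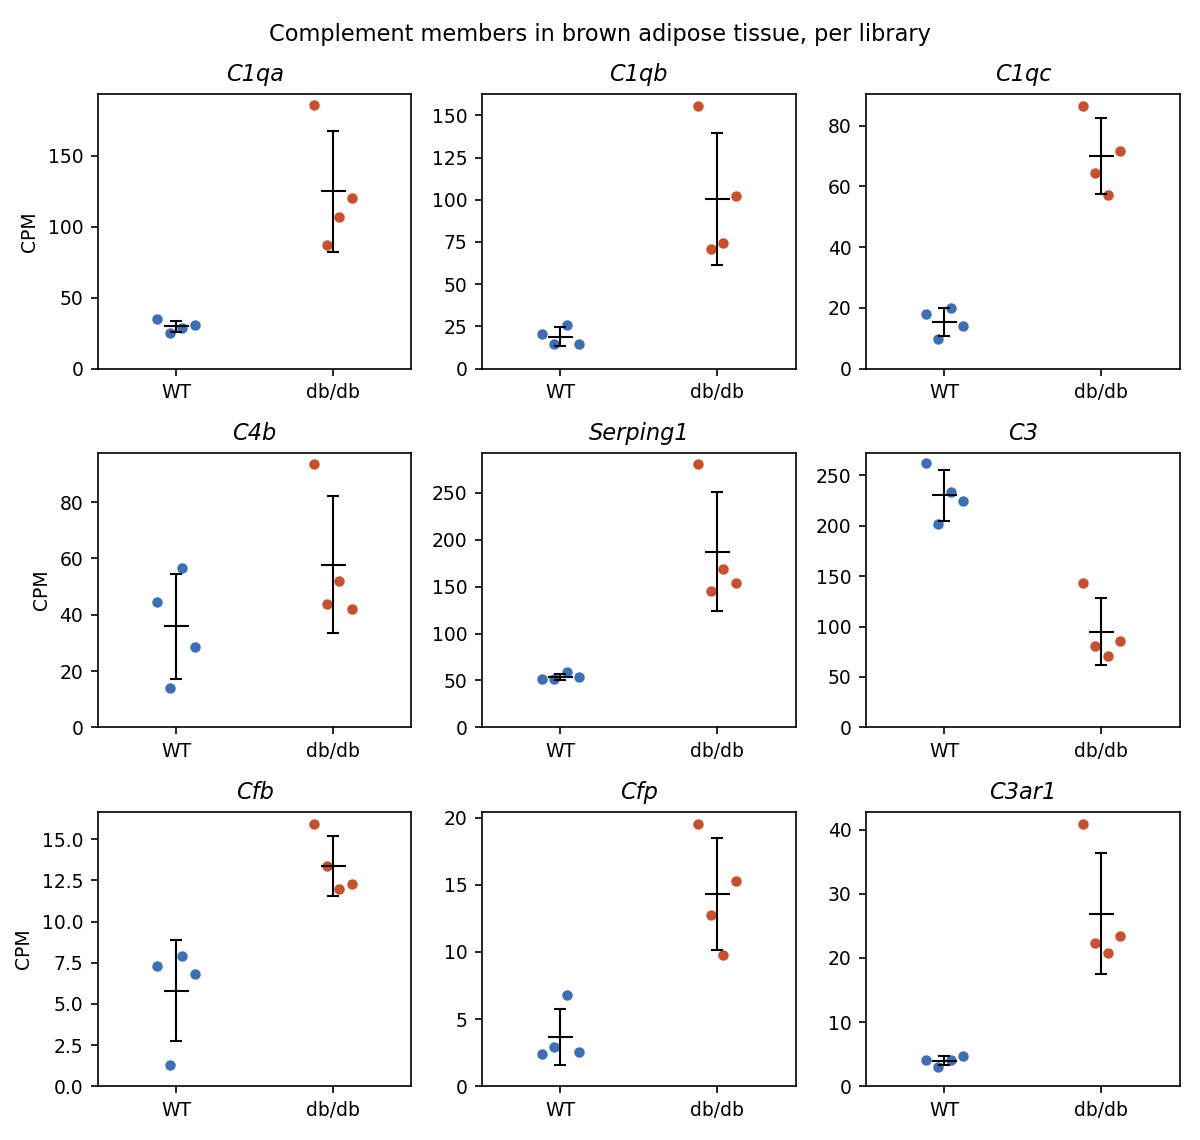
CPM of each of the 9 genes in every library (blue, 4 WT; red, 4 db/db; points run from replicate 1 to 4, bars are mean ± SD, each y axis starts at 0). All db/db points lie above all WT points for 7 genes and below them for C3, while the ranges of C4b overlap (13.9 to 56.7 CPM in WT and 42.0 to 93.6 in db/db).

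The chains of C1q rose together in db/db. C1qa stood at 34.8, 25.3, 28.6 and 30.6 CPM in WT replicates 1 to 4 and at 186, 86.9, 107 and 121 CPM in db/db replicates 1 to 4. C1qb stood at 20.6, 14.3, 25.9 and 14.4 CPM in WT and at 156, 70.6, 74.5 and 102 CPM in db/db. C1qc stood at 17.8, 9.71, 19.9 and 14.0 CPM in WT and at 86.6, 64.6, 57.2 and 71.8 CPM in db/db. For each chain the lowest db/db library lay above the highest WT library, and db/db replicate 1 was the highest of all. The log2 fold change was 2.07 for C1qa (SE 0.21, adjusted p = 1.39e-06), 2.41 for C1qb (SE 0.26, adjusted p = 2.45e-06) and 2.18 for C1qc (SE 0.21, adjusted p = 8.37e-07). Linear folds were 4.19, 5.32 and 4.54.

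The mix of the chains differed less than their level. Of the counts of the 3 genes together, C1qa took 38.4% to 51.8% in WT and 39.1% to 44.8% in db/db, C1qb 24.5% to 34.8% and 31.2% to 36.4%, and C1qc 19.7% to 26.8% and 20.3% to 29.1%. These ranges overlap between the genotypes for each chain. The summed level of the 3 chains was 49.4 to 74.4 CPM in WT and 222 to 428 CPM in db/db.

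C4b, which encodes the C4 protein cleaved by C1s, did not pass the test. Its level was 44.5, 13.9, 56.7 and 28.4 CPM in WT replicates 1 to 4 and 93.6, 43.9, 51.9 and 42.0 CPM in db/db. WT varied 4.07-fold between its lowest and highest library and db/db 2.23-fold, and the genotypes overlapped. The log2 fold change was 0.69 (SE 0.32, adjusted p = 0.122). Single libraries moved it both ways, to 0.98 without WT replicate 3 (adjusted p = 0.0400) and to 0.34 without db/db replicate 1 (adjusted p = 0.448). It passed when all genes with a count were tested (0.63, adjusted p = 0.0049), and was 0.14 with a score of the muscle markers in the fit and 0.07 without both libraries that held the most lymphocyte counts (adjusted p = 0.929 and 0.872).

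Serping1 encodes the inhibitor that inactivates C1r and C1s and also acts outside complement on the contact system. It was even among WT libraries, at 51.8, 51.1, 58.6 and 53.9 CPM, and stood at 281, 146, 168 and 154 CPM in db/db replicates 1 to 4. The lowest db/db library was above the highest WT library, and db/db replicate 1 stood apart from the other db/db libraries. The log2 fold change was 1.80 (SE 0.19, adjusted p = 2.35e-06), and it was 1.52 at the lowest when 1 library was left out. With the muscle score in the fit it was 1.12 (adjusted p = 0.0144), and of the 9 genes Serping1 had the highest within-genotype r with that score (0.73 over 8 libraries).

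C3, the protein on which the pathways converge, fell in db/db. It stood at 262, 201, 233 and 225 CPM in WT replicates 1 to 4 and at 143, 80.2, 70.9 and 85.2 CPM in db/db. The groups did not overlap, and db/db replicate 1 was the nearest to WT. The mean fell from 230 ± 25.2 to 94.9 ± 32.9 CPM (SD, n = 4 each), with a log2 fold change of -1.27 (SE 0.19, adjusted p = 7.07e-05). Leaving out any 1 library kept it between -1.55 and -1.16.

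The level of C3 was also set against that of Adipoq, the adipocyte hormone adiponectin, which was not called (log2 fold change 0.32, SE 0.14, adjusted p = 0.112). The ratio of C3 to Adipoq CPM was 0.127 to 0.175 in WT and 0.0356 to 0.0679 in db/db. These ranges did not overlap, but the choice of Adipoq matters. The list of brown adipocyte markers also holds the adipocyte genes Adipoq and Plin1. Of its 6 genes tested, 4 were lower in db/db (Cidea -1.24, Ppargc1a -0.79, Ucp1 -0.65 and Cox8b -0.63 on the log2 scale). Plin1 was higher and Adipoq was not called. The ratio of C3 to Cidea, a protein of the lipid droplet, was 0.0469 to 0.0577 in WT and 0.114, 0.0448, 0.0367 and 0.0358 in db/db replicates 1 to 4. Replicate 1 alone lay above the WT range, and the other 3 db/db libraries lay below it. Of 5 white adipocyte markers, Lep (log2 fold change 5.47), Sncg (5.45) and Npr3 (3.55) were higher, Retn (-0.13) and Agt (-0.86) were not called, and the summed level was 103 to 292 CPM in WT and 1251 to 1374 CPM in db/db. The part of these shifts among adipocyte genes in the level of C3 was not tested. Hepatocyte markers, which would mark RNA of the main source of C3, summed to 0 to 8 counts in WT and 8 to 13 in db/db, and Ttr, Serpina1a and Fgb were at 0 in all libraries.

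Both alternative pathway genes among the 9 rose, at low counts. Cfb, which provides the protease of the amplifying convertase, had 18, 3, 21 and 16 counts in WT replicates 1 to 4 and 53, 42, 27 and 33 counts in db/db. Its CPM rose from 5.81 ± 3.06 to 13.4 ± 1.81 (SD, n = 4 each), and the lowest WT library, replicate 2, stood well below the other WT libraries. The log2 fold change was 1.19 (SE 0.36, adjusted p = 0.0198). Without db/db replicate 1 the log2 fold change was 1.09 and narrowly missed the threshold (adjusted p = 0.0504), without WT replicate 2 it was 0.86 (adjusted p = 0.0394), and without both of these, the libraries with the most lymphocyte counts, it was 0.76 (adjusted p = 0.102).

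Cfp, the stabiliser of that convertase and a product of myeloid cells, had 6, 7, 18 and 6 counts in WT and 65, 40, 22 and 41 counts in db/db. In CPM it went from 3.67 ± 2.07 to 14.3 ± 4.15 (SD, n = 4 each), with a log2 fold change of 1.94 (SE 0.36, adjusted p = 6.21e-04). The genotypes did not overlap in CPM, with WT replicate 3 the highest WT library at 6.76 CPM and db/db replicate 3 the lowest db/db library at 9.75 CPM. With a score of the muscle markers added to the fit neither gene passed, at 1.05 for Cfb (adjusted p = 0.402) and 1.68 for Cfp (adjusted p = 0.121), in a fit that called 545 genes in all.

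C3ar1, the receptor of C3a found on myeloid cells, had the largest log2 fold change of the 9 genes. It stood at 4.05, 2.95, 4.13 and 4.67 CPM in WT and at 40.9, 22.3, 20.8 and 23.4 CPM in db/db, from 7 to 11 counts in WT and 47 to 136 in db/db. The lowest db/db library was well above the highest WT library, and db/db replicate 1 was the highest. The log2 fold change was 2.76 (SE 0.30, adjusted p = 2.98e-06), and 2.02 with the muscle score in the fit (adjusted p = 0.0071). Receptor and ligand thus moved apart: the ratio of C3ar1 to C3 counts was 0.0147 to 0.0208 in WT and 0.275 to 0.294 in db/db, narrow within each genotype and without overlap.

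**Figure D2:**
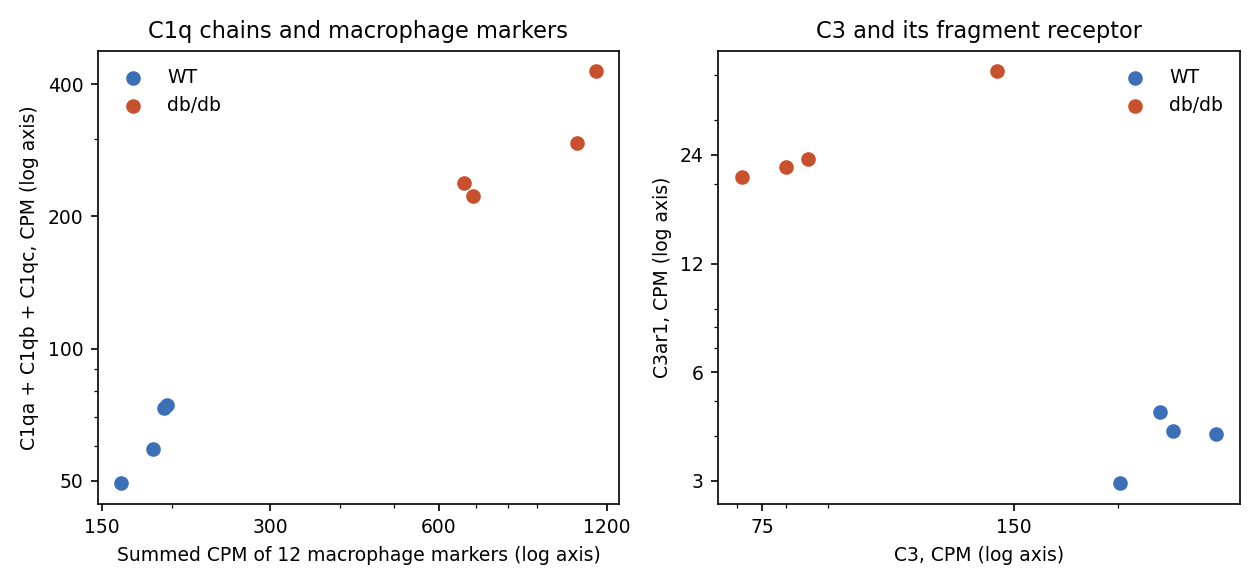
Left, summed CPM of the 3 C1q chains against the summed CPM of 12 macrophage markers; right, C3ar1 CPM against C3 CPM; each point is 1 library (blue, 4 WT; red, 4 db/db) and all axes are logarithmic. C1q and macrophage markers separate the genotypes in the same direction, while db/db libraries have less C3 and more C3ar1.

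The question of classical against alternative pathway was taken up within libraries. The classical mean (C1qa, C1qb, C1qc and C4b, mean log2 CPM) was 4.82, 3.97, 4.96 and 4.41 in WT replicates 1 to 4 and 6.96, 6.03, 6.14 and 6.30 in db/db. The alternative mean (Cfb and Cfp) was 2.34, 1.45, 3.01 and 2.32 in WT and 4.20, 3.79, 3.53 and 3.85 in db/db. Both means were higher in every db/db library than in every WT library, the classical by 1.82 and the alternative by 1.56 on average.

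The difference between the means, classical minus alternative, averaged 2.26 ± 0.29 over the WT libraries and 2.51 ± 0.22 over the db/db libraries (SD, n = 4 each). The genotypes overlapped (WT 1.95 to 2.52, db/db 2.24 to 2.76), and the shift of 0.25 was no larger than the pooled SD of 0.25. It depended on the prior count, at 0.13 with a smaller and 0.42 with a larger one, and on which genes stood for a pathway. With the C1q chains alone as the classical arm the shift was 0.60, with C3 counted as alternative 1.22, and with Cfd counted as alternative 1.66.

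**Figure D3:**
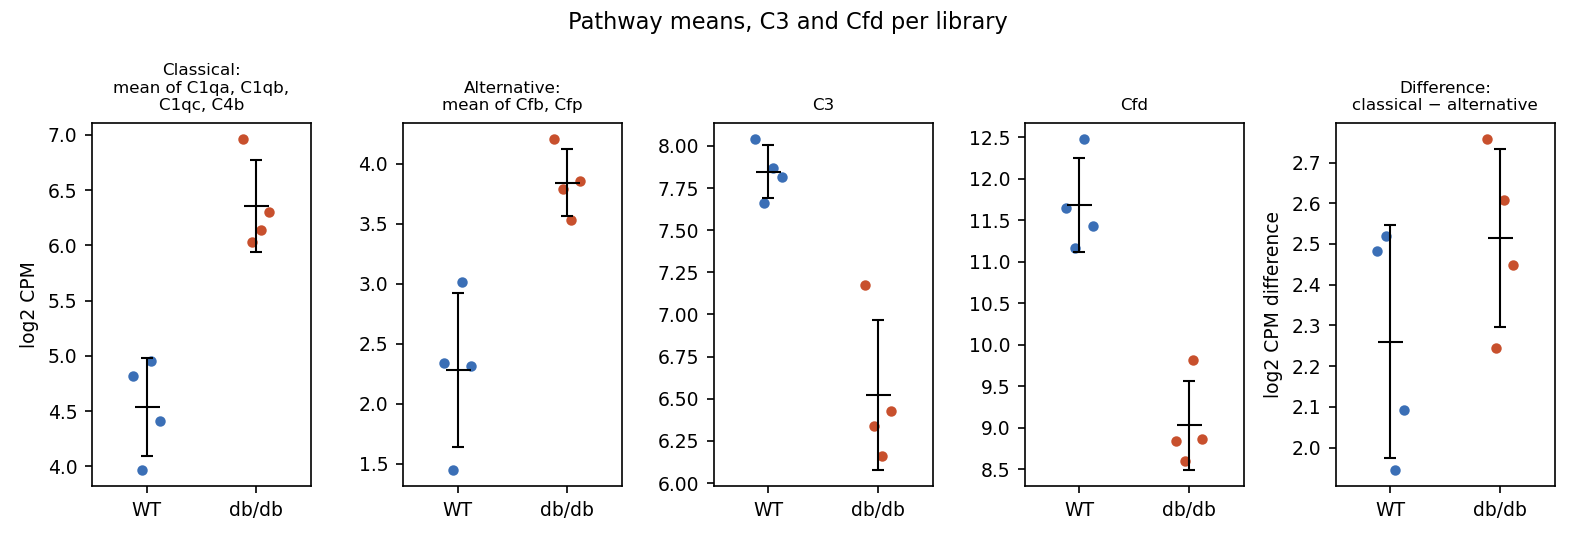
Mean log2 CPM of the classical genes (C1qa, C1qb, C1qc, C4b), of the alternative genes (Cfb, Cfp), C3, Cfd and the classical minus alternative difference, per library (blue, 4 WT; red, 4 db/db; bars are mean ± SD; the y axes differ and do not start at 0). Both pathway means rise in db/db while C3 and Cfd fall, and the difference overlaps between the genotypes (1.95 to 2.52 and 2.24 to 2.76).

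Of 45 further complement genes listed, 44 were in the table and 18 passed the filter. In db/db 9 of these 18 were higher and 2 lower, against 15.8% higher and 11.9% lower of all genes tested, and 7 were not called. The genotypes did not overlap for 10 of the 18, against 28.1% of all genes. Their median log2 fold change was 0.64, against 0.01 for all genes tested. Of the 9 higher genes, 3 (Fcna, Itgax and Itgb2) reached the level of the filter in db/db libraries alone and so had to differ. Their counts are given as a description, although all 3 remain among the 10 genes without overlap and in the median. In all, 5 of the 9 higher genes were below that level in some WT library. Of the 8 genes at that level in every WT library, 4 were higher. None of C1qa, C1qb, C1qc, C4b, Serping1, C3, Cfb, Cfp and C3ar1 reached it in db/db libraries alone. Cfp reached it in 1 WT library and Cfb and C3ar1 in 3, so these genes passed the filter through db/db. Of the 44, the other 26 were below the filter, of which 10 had 0 counts in all libraries and 17 at most 3 counts in each. Among them were the lectins Mbl1 and Mbl2, the component C5 (Hc) and the pore proteins C8a, C7 and C9.

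In the classical pathway beyond the 9 genes, the protease C1s1 rose from 13.2 ± 4.58 to 28.9 ± 7.40 CPM (log2 fold change 1.13, SE 0.26, adjusted p = 0.0033), whereas its partner C1ra (0.29, adjusted p = 0.529) and C2 (-0.51, adjusted p = 0.517) did not pass. With the muscle score in the fit C1s1 was 0.52 and lost the call (adjusted p = 0.563). Without db/db replicate 1, C1ra changed sign (-0.17) and C2 was -1.45 (adjusted p = 0.0510), and without both libraries with the most lymphocyte counts C2 was lower (-1.69, adjusted p = 0.0226). C1rb, a close copy of C1ra and below the filter, was named after its values were seen. It had 3 counts over all WT libraries and 57 over all db/db libraries, a ratio of 16.4. Its 95% counting interval, 5.34 to 81.9, pools the libraries and leaves out the spread between mice. Reads of C1ra and C1rb, and of C1s1 and C1s2, may be split between copies, and exons of C1s1 and C2 overlap other genes.

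Factor D (Cfd), the alternative pathway protease that cleaves factor B, went against Cfb and Cfp. It stood at 3212, 2305, 5697 and 2772 CPM in WT replicates 1 to 4 and at 457, 387, 899 and 467 CPM in db/db. All db/db libraries were below all WT libraries, with replicate 3 the highest of each genotype. The log2 fold change was -2.66 (SE 0.28, adjusted p = 2.59e-06). Cfd took 0.225% to 0.580% of all counts in WT and 0.0376% to 0.0851% in db/db, and its ratio to Adipoq was 1.77 to 3.12 in WT and 0.210 to 0.451 in db/db. Its ratio to Cidea was 0.579 to 1.41 in WT and 0.196 to 0.466 in db/db, again without overlap.

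Among the regulators tested, Cd59a, which blocks assembly of the membrane pore, had the smallest SE of the log2 fold change. It stood at 178, 182, 183 and 182 CPM in WT and at 449, 471, 439 and 416 CPM in db/db (log2 fold change 1.29, SE 0.12, adjusted p = 4.37e-07). Its close copy Cd59b was not called (-0.85, adjusted p = 0.159), and reads may be split between the copies. Clusterin (Clu), an inhibitor of pore assembly, rose from 10.2 ± 2.68 to 28.6 ± 9.93 CPM (a fitted fold of 2.82, adjusted p = 4.27e-04). It did not pass with the muscle score in the fit (adjusted p = 0.223). The C3b regulator Cr1l passed narrowly (0.43, SE 0.15, adjusted p = 0.0469). It kept the call in only 3 of 19 alternatives, the macrophage covariate aside. Under the other scalings tried, the call was lost at an adjusted p of 0.0532 to 0.0771.

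Itgb2, the common beta chain of complement receptors 3 and 4, had 0 to 2 counts in each WT library and 25 to 42 in each db/db library. As it reached the filter level in db/db alone, this is a description. The alpha chain Itgam rose from 2.59 ± 2.08 to 11.9 ± 6.46 CPM (log2 fold change 2.18, SE 0.51, adjusted p = 0.0040), with exons that overlap Gm49368 on the same strand, and lost the call with the muscle score in the fit (1.51, adjusted p = 0.348). Itgax had 0, 4, 0 and 0 counts in WT and 24, 13, 17 and 21 in db/db, so that any fold depends on WT replicate 2. Cr2, the receptor of the C3d fragment, was below the filter, with at most 1 count in any library.

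The C5a receptor C5ar1, below the filter and named after its values were seen, had 0, 1, 1 and 0 counts in WT and 29, 17, 9 and 14 in db/db. The ratio of pooled counts was 29.8. Its 95% counting interval, 7.94 to 251, leaves out the spread between mice. Vsig4, a macrophage receptor for C3b, had 0 counts in every WT library and 11, 2, 1 and 8 counts in db/db. Cd93, a receptor-like protein of endothelium once proposed to bind C1q, stood at a log2 fold change of 0.15 (adjusted p = 0.582). In the lectin pathway, the macrophage ficolin Fcna stood at 3, 3, 5 and 3 counts in WT replicates 1 to 4 and at 95, 19, 28 and 44 counts in db/db, with exons that overlap an antisense gene. C8g, a chain of the pore complex, was lower (-1.57, adjusted p = 0.0313), with 22 to 28 counts in WT and 2, 8, 22 and 5 in db/db, an overlap at db/db replicate 3; it lost the call on leaving out any of 6 of the 8 libraries in turn, went to -2.61 without db/db replicate 3 (adjusted p = 5.93e-04), and was -1.41 with the muscle score in the fit (adjusted p = 0.468).

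**Figure D4:**
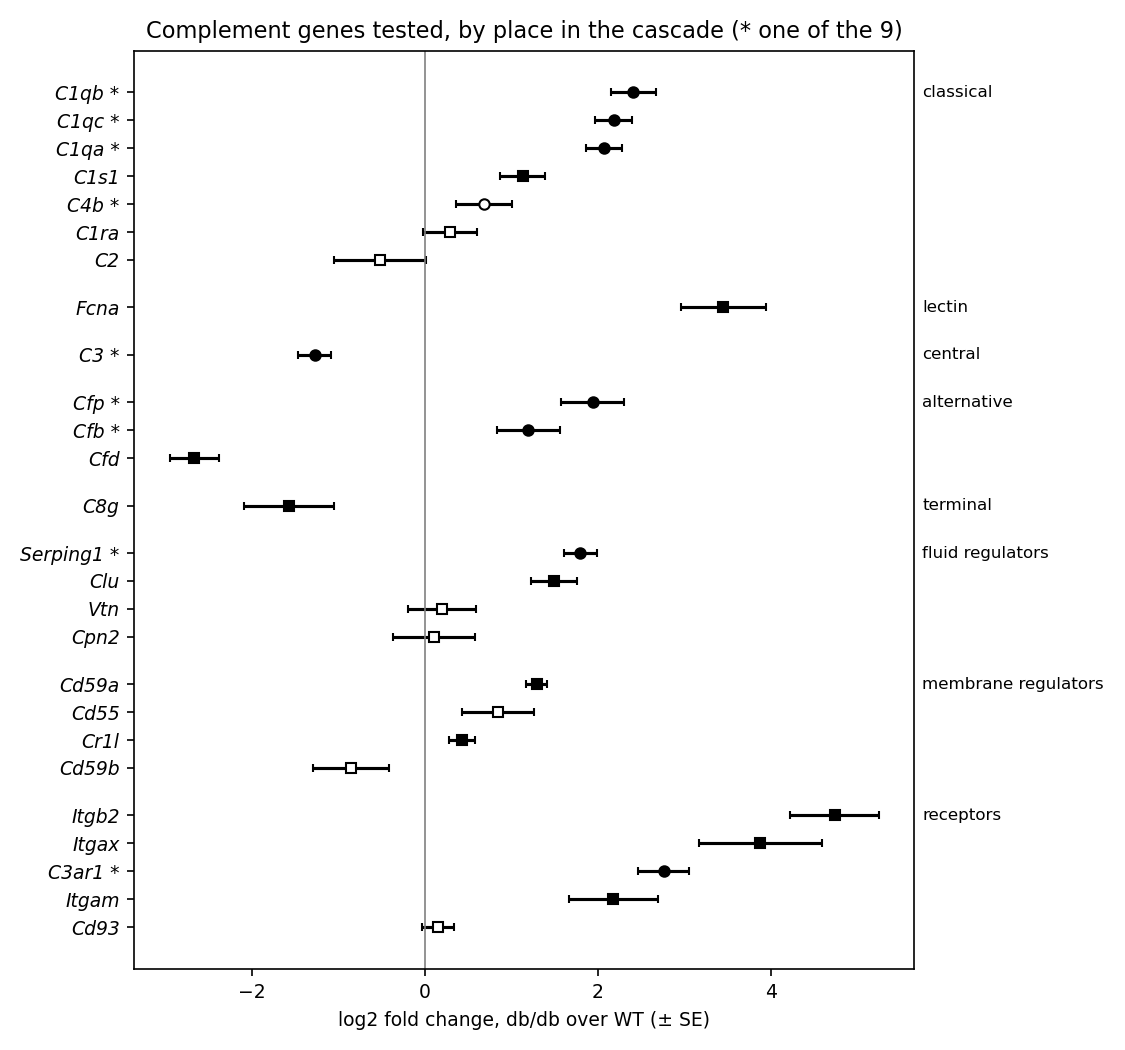
Log2 fold change, db/db over WT, of 26 of the 27 complement genes tested, ordered by place in the cascade (circles and an asterisk mark the 9 genes, squares the others; filled symbols have an edgeR adjusted p under 0.05; bars are SE). C1q chains, fluid regulators and receptors lie mostly to the right of 0, and C3, Cfd and C8g to the left.

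Macrophage markers were mostly higher in db/db, as were the C1q chains, Cfp and C3ar1, whereas C3 and Cfd were lower. Of 12 markers, 11 were tested and 9 were higher (Adgre1, Csf1r, Cd68, Lyz2, Mrc1, Cd163, Ctss, Laptm5 and Tyrobp), Mertk (-0.48, adjusted p = 0.0816) and Cd14 (-1.03, adjusted p = 0.0997) were not called, and Fcgr1 was below the filter, with at most 12 counts. Their summed level was 162 to 196 CPM in WT and 666 to 1145 CPM in db/db. The median log2 fold change of the markers tested was 2.17, and the C1q mean rose by 2.17. On the log2 scale, Ctss (3.19), Laptm5 (2.85), Lyz2 (2.79) and Tyrobp (2.78) rose more than any C1q chain. Adgre1 (2.17) and Cd68 (2.41) lay within the range of the chains, and Csf1r (1.83), Mrc1 (1.70) and Cd163 (1.56) rose less. C1q was also set against the mean log2 CPM of the marker list, which includes Mertk, Cd14 and the low-count Fcgr1. It stood 0.94 to 1.33 higher in WT and 1.47 to 1.84 higher in db/db, without overlap. With the macrophage score as a covariate none of the 9 genes passed edgeR, in a fit that called 15 genes in all; the score itself (mean log2 CPM) was 2.94 to 3.51 in WT and 4.67 to 5.26 in db/db. The part of macrophage number in these changes was not tested.

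Fibroblast and progenitor markers also rose, with 9 of 10 called and a summed level of 634 to 797 CPM in WT and 1278 to 2757 CPM in db/db. Of the endothelial markers, 2 of 5 tested were lower and none higher. Neutrophil markers summed to 0.752 to 12.3 CPM in WT and 23.0 to 26.8 CPM in db/db, with S100a8 called and S100a9 not. Their part in the levels of the 9 genes was not tested.

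Within genotypes, the 9 genes were also compared as deviations of log2 CPM from the genotype mean over the 8 libraries, which share depth and the composition of each tissue piece. Pearson's r was 0.79 between C1qa and C1qb, 0.60 between C1qa and C1qc and 0.84 between C1qb and C1qc. C3 varied in the same direction as C1qa (r = 0.90) and C3ar1 (r = 0.92) within genotypes, although it moved against both between them. db/db replicate 1, the highest db/db library for both C3 and C1q, contributes to these values.

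Of 4525 other genes with a mean of at least 20 CPM, those most like the C1q mean by this measure were Atp6v0a1 (r = 0.98, log2 fold change 1.41), Htra3 (0.97, 2.31), Cant1 (0.96, 0.17), Ywhab (0.96, 0.43) and Sh3bgrl3 (0.96, 1.89). Those most like C3 were Sparc (r = 0.98, log2 fold change 1.67), Trmt6 (0.97, 0.15), Cbx1 (0.96, -0.02), Nsmaf (0.95, 0.04) and F13a1 (0.95, 1.66). Of the 5 genes most like C3, Sparc and F13a1 were higher in db/db by edgeR and the other 3 were not called.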

How the data were processed

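BAT of 4 WT and 4 db/db mice was profiled by bulk RNA-seq, and each sample was assigned to its genotype by its title. Raw counts per gene were deposited by the authors. Per the study's methods, single-end reads were trimmed with bbduk, aligned to mm10 with STAR and counted with HTSeq-count, while the submitters' processing notes name Trimmomatic, HISAT2 and DESeq2. Whether strand was used or molecular identifiers were collapsed is not given in the sources used here, so intervals and floors cover counting error only. Log2 normalized values deposited by the authors served only as an alternative. The sample sheet was not used.

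Of 31053 genes, 30934 matched GENCODE M21, and the other 119 held at most 0.00758% of the counts of a library. Genes were filtered with filterByExpr (minimum count 10, minimum total 15), scaled by TMM and tested in edgeR 4.0.16 (R 4.3.3) by quasi-likelihood, with a term for genotype alone. Adjustment followed Benjamini and Hochberg over all 9264 genes, at 0.05. CPM are counts over the TMM-scaled total of the filtered genes, and log2 CPM used a prior count of 2. SE were derived from the F statistic. Ratios at low counts carry exact 95% intervals on the counts pooled by genotype, which leave out the spread between mice. On simulated data with 200 changed genes for this comparison (log2 change of 2), 198 of 200 were recovered among 9044 genes tested, with 16 false calls. Smaller changes, such as that of C4b, were not simulated.

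The genes examined and the lists were chosen with earlier results of these data known. The genes named are the 9, the listed complement genes above the filter (1 of them counted but not reported here), those below it by count, and the 5 genes of at least 20 mean CPM most like C1q and C3. C1rb, C5ar1, Cr2 and Vsig4, and the genes named as at or near 0, were named after their values were seen. Alternatives were other scalings and filters, DESeq2 1.42.0, limma 3.58.1 (voom and the deposited log2 values), a replicate block, muscle and macrophage scores as covariates and leaving out each library. Leaving out both libraries with the most lymphocyte marker counts, and the ratios to Cidea, were chosen after seeing the data. Libraries of separate mice were taken as replicates from their labels. Figures were drawn with matplotlib 3.10.9.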

Additional observations from a re-analysis of the deposited data

Results flagged for a closer look

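In 9 of the 54 groups of 4 libraries examined (27 complement genes in 2 genotypes), 1 library stood apart from the other 3 of its genotype by Dixon's criterion at the 95% level, which chance alone meets in about 1 in 20 groups. In WT these were Cfb in replicate 2 (1.27 CPM, 3 counts, against 6.79 to 7.89 CPM), Cfp in replicate 3 (6.76 CPM, 18 counts, against 2.43 to 2.95 CPM), Fcna in replicate 3 (1.88 CPM, 5 counts, against 1.21 to 1.27 CPM) and Itgax in replicate 2 (1.69 CPM, 4 counts, against 0 in the others). In db/db these were Serping1 (281 CPM, against 146 to 168 CPM) and C3ar1 (40.9 CPM, against 20.8 to 23.4 CPM) in replicate 1, Itgax in replicate 2 (4.14 CPM, against 7.22 to 7.81 CPM), Cfd in replicate 3 (899 CPM, against 387 to 467 CPM) and Vtn in replicate 4 (9.30 CPM, against 4.43 to 4.81 CPM). The 4 WT cases are at 18 counts or fewer. The db/db replicate 1 cases sit in the library with the most skeletal muscle and lymphocyte marker counts, and their part was not tested.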

How the results depend on the processing

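Under the other scalings, DESeq2, limma-voom and the deposited log2 values, 8 of the 9 genes were called, and 2500 to 2623 of 9264 in all. With 1 library left out, 7 to 9 of the 9 were called (C4b 0.34 to 0.98, Cfb 0.86 to 1.36). Those fits called 2236 to 2483 of 9385 to 9665 genes in all. C1qa, C1qb, C1qc, Serping1, C3ar1 and C3 kept their direction and call under every alternative run except the macrophage covariate and, for C3ar1, the strict filter, which did not test it. A filter of at least 10 counts in every library left 6 of the 9 genes and 7 of the others, of which 5 and 5 were called. That fit called 2018 of 7333 genes in all. Replicate numbers did not pair the libraries (r of deviations -0.08 to 0.05); with the replicate block 2557 genes and all 9 genes were called, C4b at 0.75 (adjusted p = 0.0273). Testing all genes with a count gave C4b 0.63. With the muscle covariate Cfb was 1.05, Cfp 1.68 and C1ra -0.61, and 5 of the other 18 genes were called, in a fit that called 545 of 9264. Without both libraries with the most lymphocyte counts (WT replicate 2 and db/db replicate 1), C4b was 0.07, Cfb was 0.76, C1ra -0.31 and Cpn2 -0.072. In that fit 7 of the 9 genes were called, and 1891 of 9275 genes in all.

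With the macrophage covariate 0 of the 9 and 0 of the other genes were called by edgeR, in a fit that called 15 of 9264: C1qa 0.083, C1qb -0.45, C1qc 0.41, C4b -2.61, C3 -2.90 (adjusted p = 0.0786), Cfb -0.87, Cfp -0.56, Serping1 0.31 and C3ar1 0.65, and among the others C1ra -3.08, Fcna -1.20, C8g 2.03, Vtn -1.28, Clu -0.43, Cpn2 -0.83, Cd55 -2.17, Cr1l -0.33, Itgam -0.30 and Cd93 -0.50, while Cfd -3.50, Cd59a 1.43, Itgax 4.13 and Itgb2 3.58 lost the call but not the direction. Left-out libraries turned C1ra (-0.17 to 0.48), Vtn (-0.12 to 0.37) and Cpn2 (-0.19 to 0.47), none of them called. The classical minus alternative shift was 0.15 to 0.34 with 1 library left out, 0.13 to 0.42 with other prior counts, and moved to 1.22 with C3 and 1.66 with Cfd as alternative and to 0.60 with the C1q chains alone. Where a call was lost, the cause was not tested. At 3 counts a level is near 1 CPM, which limits Cfb, Cfp, Itgb2, Itgax and Fcna in WT.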
